A study of Mus musculus with 8 samples.

Results

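The genes described here are 10 imprinted genes of fetal growth, taken by name: H19, Igf2, Igf2r, Meg3, Dlk1, Peg3, Mest, Cdkn1c, Grb10 and Plagl1. Of these, 9 have a row among the 13677 genes of the deposited expression table. Dlk1 has no row there and is given no value. RNA of ventricular heart tissue from mice was sequenced in 8 libraries, labelled DKO (n = 3), KO (n = 2, replicates 1 and 3) and C (n = 3). The study sets Vhl-deficient ventricles against wild-type ones in mice carrying Wt1-Cre, a Cre recombinase driven by an epicardial gene. The labels spell out none of the 3 abbreviations and do not name the second allele of the DKO samples. Strain, age and how many ventricular cells recombined are likewise not given in the sources used here, and no treatment was applied. All directions below are therefore between libraries labelled DKO, KO and C.

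An imprinted gene is transcribed mainly from the chromosome of one parent, which is set by DNA methylation laid down in the germ line. In mice, Igf2, Peg3, Mest, Plagl1 and Dlk1 are read mainly from the paternal chromosome, and H19, Igf2r, Meg3, Cdkn1c and Grb10 mainly from the maternal one (Grb10 from the paternal one in neurons). Paternally expressed members tend to favour fetal growth and maternally expressed members to restrain it, and several of them decline in most tissues after birth. The alleles cannot be told apart in a table of gene totals. VHL, the product of Vhl, tags the oxygen-sensitive subunits of hypoxia-inducible factors (HIF) for degradation in normal oxygen. HIF dimers bind DNA at the core ACGTG or GCGTG.

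The levels below are the authors' deposited signal, which is reads plus 0.5 scaled to an effective library size. Libraries held 15028176 to 21202385 reads. The effective size was 0.705 to 1.06 times the total in DKO, 1.36 to 1.37 times in KO and 0.925 to 0.964 times in C. DKO 2 stood apart from the other 7 libraries, with 41.6% of its reads from the mitochondrial genome, against 16.2% to 29.9% in the others. Vhl signal was 8.61 to 11.2 in DKO, 8.33 to 8.96 in KO and 7.26 to 8.97 in C, so the whole-gene level did not check the labels. All 10 cardiomyocyte markers looked at were present, with a summed signal of 36250.5 to 59774 in DKO, 36528 to 41127 in KO and 60659 to 63824 in C. Markers of skeletal muscle summed to 9.4 to 20.8 in DKO, 1.7 to 2.1 in KO and 81.3 to 533.0 in C. The labels do not state that replicates are different animals. Where they are not, the p-values rest on technical variation alone.

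The members lie in 7 places of the genome (GRCm38, GENCODE M21). On distal chromosome 7, H19 (ENSMUSG00000000031, minus strand, 142575529 to 142578143) is a long noncoding RNA gene, and Igf2 (ENSMUSG00000048583, minus strand, 142650766 to 142666816) lies 72.6 kb from it. Igf2 encodes insulin-like growth factor 2, and both genes draw on shared enhancers. Cdkn1c (ENSMUSG00000037664, minus strand, 143458339 to 143461050), which encodes the cyclin-dependent kinase inhibitor p57, lies 791.5 kb beyond Igf2. Peg3 (ENSMUSG00000002265, minus strand, 6703892 to 6730431), encoding a zinc finger protein, is at the other end of chromosome 7. Mest (ENSMUSG00000051855, chromosome 6, plus strand, 30723547 to 30748465) encodes a protein of the hydrolase fold, and Plagl1 (ENSMUSG00000019817, chromosome 10, plus strand, 13060504 to 13131694) a zinc finger factor known in mice to bind other imprinted genes. Grb10 (ENSMUSG00000020176, chromosome 11, minus strand, 11930508 to 12038683) encodes an adaptor that restrains insulin and IGF receptors. Meg3 (ENSMUSG00000021268, chromosome 12, plus strand, 109541001 to 109571726) is a long noncoding RNA gene beside Dlk1. Igf2r (ENSMUSG00000023830, chromosome 17, minus strand, 12682406 to 12769664) encodes the mannose 6-phosphate receptor that clears IGF2 to the lysosome.

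Promoter windows from RefSeq (GRCm38.p6, 250 bases before to 50 after an annotated start) are shown for the paternally expressed Peg3 and Igf2 and for Grb10 and Igf2r, the pair that clears or damps IGF signals. The letters ACGTG and GCGTG were searched on both strands, and matches are in capitals. Each window is written 5′ to 3′ on the minus strand, where all 4 genes are read.
Peg3, chr7:6730370-6730669: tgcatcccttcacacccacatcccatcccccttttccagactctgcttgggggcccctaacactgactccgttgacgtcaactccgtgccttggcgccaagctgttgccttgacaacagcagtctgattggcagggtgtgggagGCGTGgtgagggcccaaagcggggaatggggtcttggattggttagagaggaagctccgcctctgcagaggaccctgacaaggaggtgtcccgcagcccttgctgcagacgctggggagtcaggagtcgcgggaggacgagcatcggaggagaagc
Igf2, chr7:142658755-142659054: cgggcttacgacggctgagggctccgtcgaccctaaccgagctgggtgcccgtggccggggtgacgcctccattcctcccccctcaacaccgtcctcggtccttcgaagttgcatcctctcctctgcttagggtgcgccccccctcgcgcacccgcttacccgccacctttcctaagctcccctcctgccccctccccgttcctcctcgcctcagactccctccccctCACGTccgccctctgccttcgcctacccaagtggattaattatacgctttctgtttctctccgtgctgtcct
Grb10, chr11:12037371-12037670: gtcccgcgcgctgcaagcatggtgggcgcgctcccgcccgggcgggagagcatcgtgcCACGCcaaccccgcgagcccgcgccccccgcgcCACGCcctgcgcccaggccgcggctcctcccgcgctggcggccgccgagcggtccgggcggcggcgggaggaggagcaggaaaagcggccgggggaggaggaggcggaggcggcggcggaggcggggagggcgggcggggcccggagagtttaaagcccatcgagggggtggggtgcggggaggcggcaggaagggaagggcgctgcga
Igf2r, chr17:12769657-12769956: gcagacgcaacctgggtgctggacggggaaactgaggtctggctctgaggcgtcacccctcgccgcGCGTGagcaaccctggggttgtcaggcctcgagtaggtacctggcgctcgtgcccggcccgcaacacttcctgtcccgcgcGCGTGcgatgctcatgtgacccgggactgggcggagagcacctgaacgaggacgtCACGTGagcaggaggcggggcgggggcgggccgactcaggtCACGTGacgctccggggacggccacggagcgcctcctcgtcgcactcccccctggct
The Peg3 window holds 1 GCGTG as printed. The Grb10 window shown, 1 of 2 listed, holds 2, printed as CACGC since they lie on the opposite strand. The Igf2 window shown, 1 of 4 listed for the gene, holds 1 ACGTG on the opposite strand (printed as CACGT), and the other 3 hold neither core. The other Grb10 window and those of Mest and Meg3 hold neither core. Of the windows not shown, that of Plagl1 holds 2 GCGTG and 1 CACGTG, and that of Dlk1 holds 1 ACGTG and 1 GCGTG. The Igf2r window holds 2 GCGTG and 2 copies of CACGTG, whose palindrome carries ACGTG on both strands. Of 32851 promoter windows of this length, 43.8% hold at least 1 of the cores and 7.15% hold CACGTG. These matches describe letters only. In all, 8 of the 10 members have a window in this table. H19 and Cdkn1c have none.

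H19 and Igf2 are also hosts of microRNAs, whose mature forms were not measured in this poly(A) RNA. Their RefSeq sequences (GRCm38.p6, minus strand) are shown because they lie within the host genes. The seed, bases 2 to 8, is in capitals.
mmu-miR-675-5p in H19, chr7:142577112-142577133: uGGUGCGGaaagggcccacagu
mmu-miR-675-3p in H19, chr7:142577078-142577099: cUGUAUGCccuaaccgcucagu
mmu-miR-483-5p in Igf2, chr7:142654968-142654989: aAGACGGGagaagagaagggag
mmu-miR-483-3p in Igf2, chr7:142654932-142654952: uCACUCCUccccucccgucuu
No 2 of the 4 share a seed. The hairpin of miR-675 lies within an exon in 3 of 7 annotated H19 transcripts, whereas that of miR-483 lies in no exon of the 9 Igf2 transcripts.

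In KO libraries the growth inhibitor gene Cdkn1c and Peg3 were lower than in C and Grb10 was higher. These were 3 of 9 members called, 1 higher and 2 lower, where 13.9% of all 13544 tested genes were called (6.9% higher and 7.01% lower). A call is an adjusted p under 0.05 in limma, fitted on log2(signal + 1) over all 8 libraries and adjusted over all tested genes by Benjamini-Hochberg. The median log2 fold change of the members was -0.18, beside 0.01 for all tested genes. Libraries of the groups did not overlap for 5 of the 9 members, where 54.3% of tested genes did not overlap. At an unadjusted p under 0.05 there were 4, where 29.1% of tested genes passed. The plot of members by library shows these values.

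**Figure D1:**
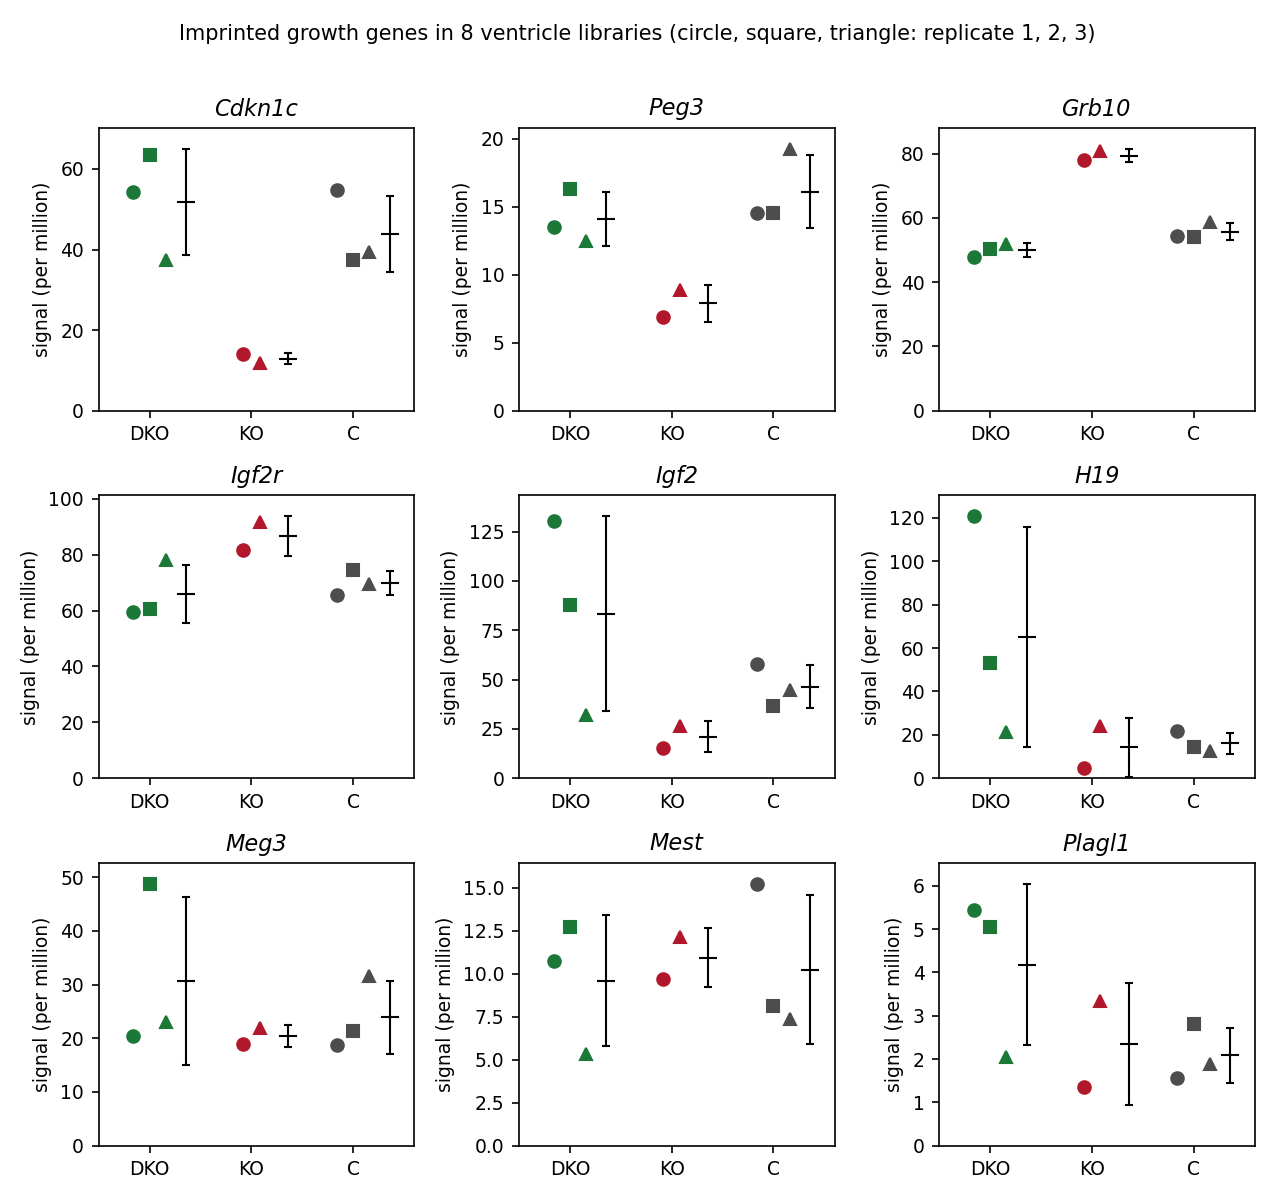
Deposited signal (scaled to effective library size, axes from 0) of the 9 members in each of the 8 libraries, grouped as DKO, KO and C. Coloured symbols are libraries, and black bars give the group mean ± SD. Cdkn1c is at 14.0 and 11.9 in the KO libraries and at 37.3 or more in all others.

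Cdkn1c had a signal of 54.4, 63.5 and 37.5 in DKO, 14.0 and 11.9 in KO, and 54.7, 37.3 and 39.4 in C. The 2 KO libraries stood below every other library, and DKO and C overlapped. The counts behind these values are 344 to 1183 reads. In KO, Cdkn1c was 3.18-fold lower than in C and fell by 1.67 ± 0.23 (SE, log2 scale), with adjusted p = 0.00125 in limma. DKO against KO it was 3.71-fold higher, by 1.89 ± 0.23 (SE, log2 scale), with adjusted p = 0.000809 in limma. Both calls stayed in each of the 20 alternative settings and left-out libraries tried, with adjusted p of at most 0.0238 and 0.0144. Scaling to total reads, which moved the median gene by -0.61 in DKO against KO, gave 1.26 there. In bulk tissue fewer cells of a type and less RNA per cell cannot be told apart. The strand setting of the counting is not given in the sources used here, and 625 exonic bases of Cdkn1c are shared with the antisense gene Gm44732.

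Among 4 of 7 other listed genes of cyclin-dependent kinase inhibitors that were tested, 0 passed limma between KO and C. Of these, 2 had an unadjusted p under 0.05 in limma, 0 passed edgeR and 1 passed DESeq2. Of all tested genes 13.9% were called there and 29.1% had such a p. In DKO against C, 0 of the 4 passed limma or edgeR and 1 passed DESeq2. An unadjusted p under 0.05 in limma was found for 1, where 8.5% of all tested genes passed. Cdkn1a, which encodes p21, had a signal of 17.5, 20.8 and 13.3 in DKO, 45.8 and 54.1 in KO, and 29.5, 38.4 and 27.2 in C. It was higher in both KO libraries than in any other, and fell in DKO against KO (17.2 in DKO, 49.97 in KO; limma, adjusted p = 0.00155). The ratio of Cdkn1c to Cdkn1a signal within a library, which no scaling between libraries can change, was 3.11, 3.05 and 2.82 in DKO, 0.304 and 0.221 in KO, and 1.86, 0.970 and 1.45 in C. The 3 groups do not overlap in this ratio, which is a description with no test. Between DKO and C, Cdkn1a signal did not overlap, whereas Cdkn1c signal did.

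Genes of proliferating cells differed in the opposite direction to Cdkn1c. Their summed signal over 9 of 10 listed genes was 14.8 to 17.7 in DKO, 38.7 to 42.4 in KO and 17.6 to 19.8 in C. Of all tested genes 6.9% rose and 7.01% fell in KO against C, with a median log2 fold change of 0.01. Of the 9, 5 rose in KO against C and 0 fell (limma), with a median log2 fold change of 0.82. They include Top2a, a topoisomerase gene of dividing cells (5.72 in KO, 2.02 in C), Cdk1, the mitotic kinase gene (3.46 in KO, 1.19 in C), and Mcm2, a subunit gene of the replication helicase (8.84 in KO, 3.90 in C). The calls of all 3 ended without KO 1 (adjusted p of 0.0541 to 0.127) or without KO 3 (0.0747 to 0.122), and that of Cdk1 also without C 1 (0.0598) or C 3 (0.0666). Whether the same cells carried both differences was not tested.

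Peg3 signal was 13.5, 16.3 and 12.5 in DKO, 6.91 and 8.86 in KO, and 14.5, 14.6 and 19.2 in C. Both KO libraries were below all others, and DKO overlapped C. Against C, Peg3 fell in KO by 0.94 ± 0.19 (SE, log2 scale), with adjusted p = 0.00824 in limma. DKO against KO, it rose 1.70-fold, by 0.76 ± 0.19 (SE) (limma, adjusted p = 0.0251). The KO versus C call ended without KO 1 (adjusted p = 0.0884) and under scaling to total reads (adjusted p = 0.125). The DKO versus KO call ended without KO 1 (0.192) or KO 3 (0.0840), in a fit of the 2 groups alone (0.0644) and under both scalings to total reads (0.565, and 0.129 without mitochondrial transcripts). Peg3 is expressed in muscle, and the skeletal muscle markers were lowest in KO as well, although at 9.4 to 20.8 in DKO they were also far below C. Their part in the Peg3 difference was not tested.

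Grb10 varied least among replicates. Its signal was 47.7, 50.4 and 51.8 in DKO, 77.9 and 80.8 in KO, and 54.4, 54.2 and 58.7 in C. The 3 groups do not overlap, with KO highest and DKO lowest. Grb10 rose 1.42-fold in KO against C, by 0.50 ± 0.14 (SE, log2 scale), with adjusted p = 0.0357 in limma. In DKO against KO it fell by 0.66 ± 0.14 (SE) (limma, adjusted p = 0.0129). The rise in KO lost its call without C 1 (adjusted p = 0.127), C 2 (0.127), C 3 (0.0834), KO 1 (0.131) or KO 3 (0.199), and with median centring (0.0664). The fall in DKO lost its call without KO 1 (0.0701) or KO 3 (0.114) and in a fit of those 2 groups alone (0.0778). Under scaling to total reads the rise in KO was 1.04 and its call stayed.

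**Figure D2:**
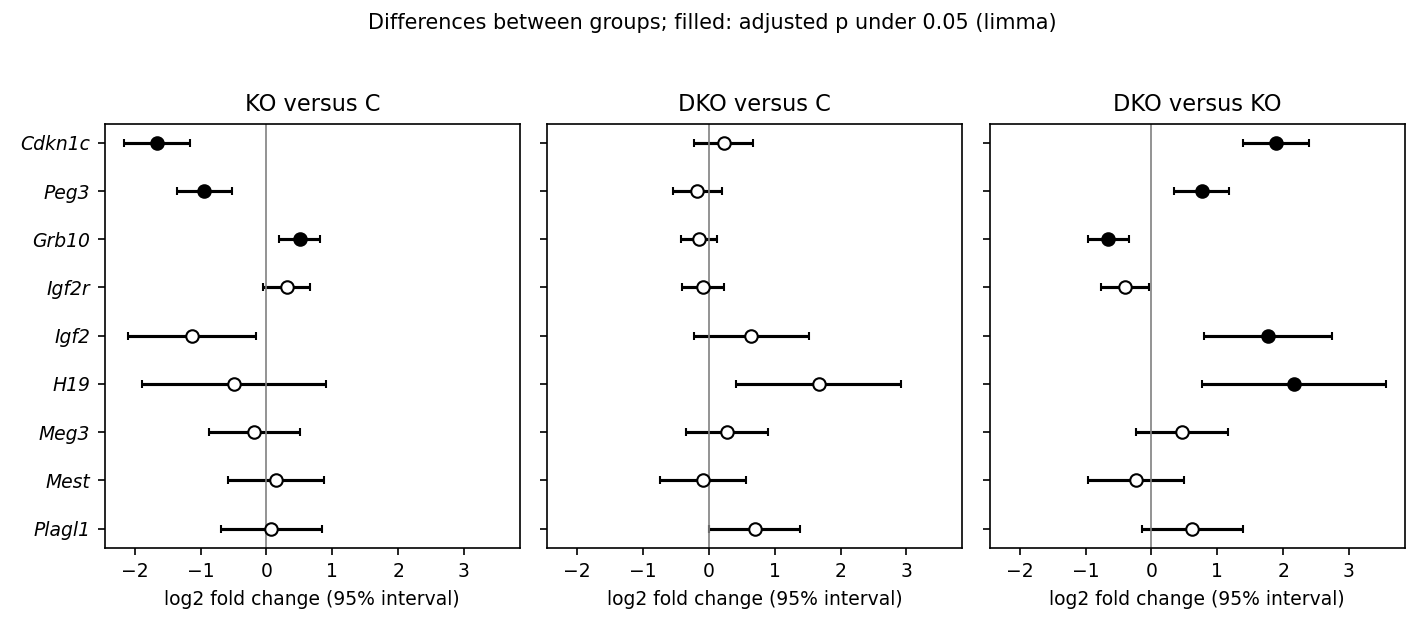
Log2 fold change with its 95% interval for the 9 members in each comparison, from limma over 8 libraries. Filled points passed an adjusted p of 0.05: 3 members in KO versus C, 0 in DKO versus C and 5 in DKO versus KO.

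Igf2r, the receptor that removes IGF2, had a signal of 59.7, 60.5 and 78.0 in DKO, 81.8 and 91.7 in KO, and 65.7, 74.5 and 69.6 in C. The KO libraries were the highest, by a small margin over DKO 3. The difference was 0.31 ± 0.17 (SE) on the log2 scale in KO against C (95% interval -0.06 to 0.67; limma, adjusted p = 0.248) and -0.40 ± 0.17 (SE) in DKO against KO (95% interval -0.76 to -0.03; limma, adjusted p = 0.142). Scaling to total reads made both calls, at 0.84 (adjusted p = 0.0188) and -1.05 (adjusted p = 0.00497), and leaving mitochondrial transcripts out of the total did so too, at 0.68 (0.0141) and -0.77 (0.00950). The first scaling also moved the median gene by 0.51 in KO against C and -0.61 in DKO against KO. Relative to that shift the change of Igf2r was close to the one above. Airn, the antisense RNA that silences paternal Igf2r in mice, did not pass in any of the comparisons (limma, adjusted p of 0.406 to 0.990).

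Igf2 had a signal of 130.4, 87.7 and 32.1 in DKO, 15.5 and 26.6 in KO, and 57.8, 36.4 and 44.9 in C. The KO libraries were the 2 lowest. DKO 1 and DKO 2 were the 2 highest, while DKO 3 lay below all C libraries. Igf2 rose 3.41-fold in DKO against KO, by 1.77 ± 0.45 (SE, log2 scale), with adjusted p = 0.0259 in limma. The call ended without DKO 2 (adjusted p = 0.0587), KO 1 (0.196) or KO 3 (0.0856) and in a fit of the 2 groups alone (0.0508). Under scaling to total reads the rise was 1.13 and its call stayed. Between KO and C the difference was -1.13 ± 0.45 (SE) and did not pass (95% interval -2.10 to -0.15; limma, adjusted p = 0.116), but passed without DKO 3 (0.0134) and in a fit of those 2 groups alone (0.00514). Igf2 shares 3596 exonic bases with Gm49394 on the same strand, so an uncertain split of reads could affect its level.

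H19 showed the widest spread of the 9 members within DKO and within KO. Its signal was 120.7, 53.1 and 21.5 in DKO, 4.59 and 23.9 in KO, and 21.5, 14.3 and 12.4 in C. DKO 1 and DKO 2 were above all other libraries, KO 1 was the lowest, and KO 3 lay above DKO 3 and every C library. The counts are 116 and 690 reads in the KO libraries, so the gap between them is far beyond counting error. H19 rose 4.48-fold in DKO against KO, by 2.16 ± 0.64 (SE, log2 scale), with adjusted p = 0.0479 in limma. Single libraries moved the linear fold change by over 1.5 times. Its log2 value was 1.084 without KO 1, 3.24 without KO 3, 1.56 without DKO 1 and 2.78 without DKO 3. The call ended without DKO 1 (adjusted p = 0.0890), DKO 2 (0.0862), KO 1 (0.389), C 1 (0.0604), C 2 (0.0651) or C 3 (0.0670). It also ended with edgeR (0.0611), DESeq2 (0.0910), quantile normalisation (0.0503), a pseudocount of 4 (0.0537) or a fit of the 2 groups alone (0.0826). In KO against C the difference was -0.50 ± 0.64 (SE) and did not pass (95% interval -1.90 to 0.90; limma, adjusted p = 0.651), and its sign turned without KO 1 (0.58).

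**Figure D3:**
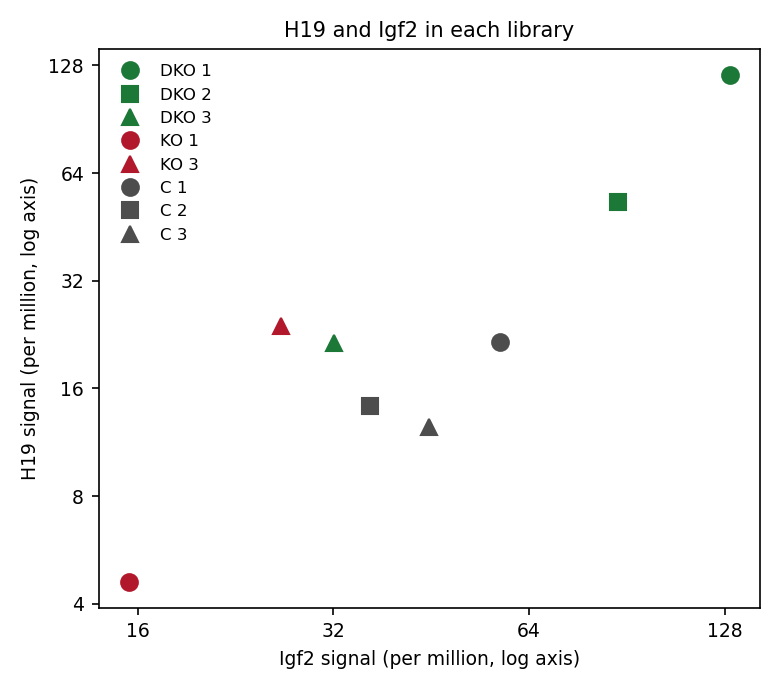
H19 signal against Igf2 signal in the 8 libraries, both on log axes. DKO 1 and DKO 2 are at the top right and KO 1 at the bottom left, while KO 3 and DKO 3 lie next to each other.

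Within a library, H19 was 0.926, 0.605 and 0.669 times Igf2 in DKO, 0.296 and 0.901 times in KO, and 0.372, 0.394 and 0.277 times in C. All 3 DKO libraries and KO 3 were above every C library, and KO 1 was within the range of C. No scaling between libraries can change these ratios. The ratio of Igf2 to Igf2r, ligand transcript to clearing receptor transcript, was 2.18, 1.45 and 0.411 in DKO, 0.189 and 0.290 in KO, and 0.880, 0.488 and 0.645 in C. Both KO libraries were below all others in that ratio. These ratios were described and not tested.

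Fibroblast and fat cell markers also differed between the DKO libraries. The 12 fibroblast markers summed to 3667, 2530 and 1471 in DKO, 2480 and 1962 in KO, and 2075, 1631 and 1272 in C. The order of the DKO libraries was that of H19 and Igf2. The sum was led by Gsn, a gelsolin gene that other cells also express, which made up 2201 of it in DKO 1. The list was mixed in KO against C: Col1a1, Col1a2, Col3a1, Mfap5 and Pi16 rose, while Pdgfra (16.9 in KO, 21.7 in C), Dpt (46.4 in KO, 64.0 in C) and Gsn (652 in KO, 846 in C) did not pass and had lower means in KO. Of the fat cell list 4 of 8 genes were in the table, with a summed signal of 799, 1029 and 500 in DKO, 453 and 334 in KO, and 1116, 827 and 739 in C. Most of that sum was Fabp4, a gene that capillary endothelium also expresses. Cidec and Plin1, which define fat cells, had 0 reads in both KO libraries. Neither passed limma in KO against C, where edgeR passed 2 of the 4 fat cell genes and DESeq2 passed 4. The 7 epicardium markers in the table summed to 12.7 to 22.4 in DKO, 30.7 to 33.3 in KO and 9.98 to 17.3 in C. The 10 endothelium markers summed to 1082 to 1896 in DKO, 1134 to 1226 in KO and 1098 to 1477 in C. Of the fat cell markers 2 of 4 fell in KO against C, Cfd and Fabp4, and of the skeletal muscle markers 11 of 11 fell. The calls of Cfd and Fabp4 each ended without any 1 library of KO or C (adjusted p of 0.0501 to 0.221). Of the epicardium markers 3 of 7 rose in KO against C. Mural cells had 1 of 9 markers higher, macrophages 1 of 8, and neurons and glia 1 of 6 higher and 1 lower. Of 10 cardiomyocyte markers 1 rose (Tbx20) and 1 fell (Tnni3), with a median log2 fold change of -0.45. For these edgeR passed 3 and DESeq2 passed 6. Of all tested genes 6.9% rose and 7.01% fell in KO against C (limma). In DKO against C, 8 of 11 skeletal muscle markers fell (limma), where 0.0812% of all tested genes fell. Of 10 endothelium markers and 1 fetal red cell gene, 0 passed limma, edgeR, DESeq2 or an unadjusted p under 0.05 in KO against C. The part of these cells in the levels of Igf2, H19 and Cdkn1c was not tested.

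The remaining members did not pass in any comparison. Meg3 had a signal of 20.5, 48.7 and 23.0 in DKO, 18.99 and 21.9 in KO, and 18.7, 21.3 and 31.7 in C. The groups overlapped, with DKO 2 as the highest library. Mest had a signal of 10.7, 12.7 and 5.33 in DKO, 9.70 and 12.2 in KO, and 15.2, 8.11 and 7.38 in C, and overlapped in the same way. Plagl1, counted from only 25 to 118 reads a library, had a signal of 5.45, 5.05 and 2.05 in DKO, 1.36 and 3.35 in KO, and 1.56, 2.80 and 1.88 in C. In this signal DKO 1 and DKO 2 were the highest for Plagl1 as they were for Igf2 and H19. For Plagl1 that order depends on the scaling. KO 3 had 96 of 21202385 reads and DKO 2 had 53 of 15028176, a smaller share. In KO against C the log2 differences were -0.18 ± 0.32 (SE) for Meg3, 0.14 ± 0.33 (SE) for Mest and 0.07 ± 0.35 (SE) for Plagl1, with limma adjusted p of 0.747, 0.816 and 0.914. The 95% intervals were -0.88 to 0.51, -0.59 to 0.87 and -0.69 to 0.84, so differences within these ranges are not excluded. For Mest, scaling to total reads made a call in DKO against KO (-0.84; adjusted p = 0.0385), and 912 exonic bases are shared with Copg2 on the other strand.

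DKO libraries were not told apart from C for any member: 0 of 9 passed limma, where 0.155% of all tested genes were called. By direction the background was 0.0738% higher and 0.0812% lower. With edgeR and DESeq2, 0 members passed as well. Libraries of the groups did not overlap for 1 member, Grb10, where 13.8% of tested genes did not. At an unadjusted p under 0.05, 2 of 9 differed in limma, H19 and Plagl1, where 8.5% of all tested genes did. The largest difference was that of H19, 1.66 ± 0.57 (SE) on the log2 scale (95% interval 0.41 to 2.91; limma, adjusted p = 0.520). For Cdkn1c it was 0.22 ± 0.21 (SE), with a 95% interval of -0.22 to 0.67 (limma, adjusted p = 0.769). A p that misses the threshold does not show that DKO and C were alike.

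DKO against KO, 5 of 9 members passed limma, 4 higher (Cdkn1c, Peg3, Igf2 and H19) and 1 lower (Grb10), where 11.8% of all tested genes were called (6.08% higher and 5.73% lower). Libraries did not overlap for 5 of 9, where 41.5% of tested genes did not, and 6 had an unadjusted p under 0.05, where 28.9% did. The members' median log2 fold change was 0.62, beside 0.01 for all tested genes. The comparisons share the KO libraries or the C libraries, so they do not support each other independently. By parental class, the maternally expressed members called were 2 higher (Cdkn1c and H19) and 1 lower (Grb10) of 5, and the paternally expressed ones 2 higher (Peg3 and Igf2) of 4 tested. Both directions thus occurred among maternally expressed genes.

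Levels were compared between genes per kilobase of the longest annotated transcript. In C, Cdkn1c came first with 23.05 ± 4.996 signal per kb (SD, n = 3), followed by Grb10 with 11.01 ± 0.501, Igf2 with 9.82 ± 2.29, Igf2r with 7.87 ± 0.496 and H19 with 7.04 ± 2.10. From Grb10 to H19, neighbours in this order lie within 1 SD of each other in at least 1 of the 2 genes. Mest had 3.84 ± 1.62, Peg3 1.85 ± 0.312, Meg3 1.64 ± 0.471 and Plagl1 0.396 ± 0.122 signal per kb. In KO, Grb10 came first with 15.7 ± 0.411 signal per kb (SD, n = 2) and Igf2r second with 9.76 ± 0.788. Cdkn1c came next with 6.81 ± 0.748, followed by H19 with 6.24 ± 5.99. The spread of H19 covers the means of Cdkn1c and Igf2r, so its place is not settled. In DKO, H19 and Cdkn1c were the highest, with 28.5 ± 22.2 and 27.2 ± 6.94 signal per kb (SD, n = 3), and did not differ beyond their spread.

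From H19 to Osbpl5, 10 listed imprinted genes of distal chromosome 7 were tested. In KO against C 1 of them passed, Cdkn1c, where 13.9% of all tested genes were called. Kcnq1ot1, the long noncoding RNA that silences the paternal copy of Cdkn1c in mice, had a signal of 2.41, 8.26 and 4.98 in DKO, 1.59 and 1.82 in KO, and 2.602, 2.38 and 3.24 in C. In the deposited signal both KO libraries were the lowest for Kcnq1ot1. The log2 difference was -0.46 in KO against C (limma, adjusted p = 0.387) and 1.09 ± 0.35 (SE) in DKO against KO (limma, adjusted p = 0.0546). The second difference passed with edgeR (0.0380), DESeq2 (0.00552), a pseudocount of 0.25 (0.0497), median centring (0.0412) and without DKO 1 (0.00555). It did not pass in 14 of the 19 alternatives run, where it was as low as 0.60 and its adjusted p reached 0.222. Nap1l4, the next of these 10 genes after Cdkn1c though not directly beside it, and Cd81 had log2 differences of -0.02 each in KO against C. Their limma adjusted p were 0.950 and 0.951.

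**Figure D4:**
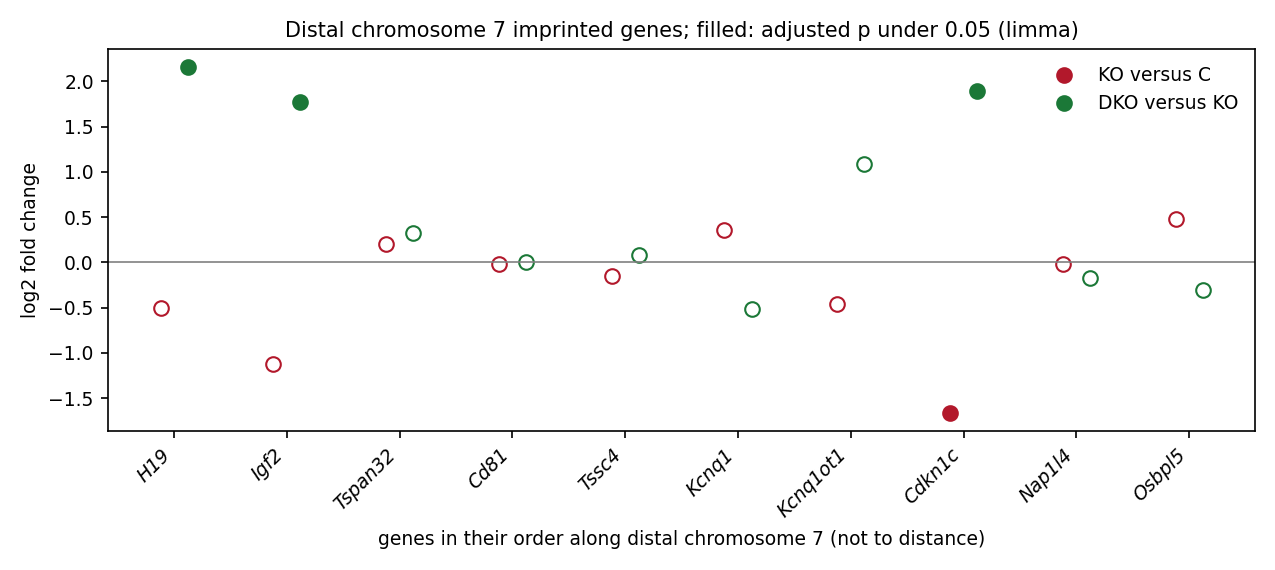
Log2 fold changes of 10 imprinted genes in their order along distal chromosome 7, for KO versus C and DKO versus KO (limma). Filled points passed an adjusted p of 0.05: Cdkn1c in both comparisons, and H19 and Igf2 in DKO versus KO alone.

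Of 63 other imprinted genes listed, 38 were tested. In KO against C 2.6% of them were called, beside 13.9% of all tested genes. In DKO against KO 7.9% were called, beside 11.8%. In KO against C, 0 rose and 1 fell, Commd1 (30.5 in KO, 54.2 in C; limma, adjusted p = 0.00942), with a median log2 fold change of -0.00 beside 0.01 for all genes. Commd1, which encodes a copper metabolism protein, lost its call without KO 3 (adjusted p = 0.131) and under scaling to total reads (0.371, and 0.0833 without mitochondrial transcripts). In DKO against C, 0 passed limma, edgeR or DESeq2. An unadjusted p under 0.05 in limma was found for 4, where 8.5% of all tested genes passed. In DKO against KO, 1 rose, Ndn, encoding the growth suppressor necdin (16.2 in DKO, 7.05 in KO; limma, adjusted p = 0.0479), and 2 fell, the amino acid transporter gene Slc38a4 (4.09 in DKO, 13.5 in KO; 0.0137) and the sialic acid acetyltransferase gene Casd1 (12.5 in DKO, 19.5 in KO; 0.0402). Each of these 3 calls ended without KO 1 (adjusted p of 0.116 to 0.182) or KO 3 (0.0710 to 0.303), and those of Ndn and Casd1 also without any 1 C library or without DKO 2 (0.0502 to 0.101). The call of Ndn ended without DKO 1 (0.0964) and that of Casd1 without DKO 3 (0.0699). In a fit of the 2 groups alone both calls ended (0.0961 for Ndn, 0.0966 for Casd1). Ndn also lost its call with a pseudocount of 4 (0.0536) and under scaling to total reads (log2 difference 0.42, adjusted p = 0.272), or to those reads without mitochondrial transcripts (0.102). Ndn was 21.5, 18.5 and 8.67 in DKO, 8.09 and 6.01 in KO, and 12.4, 9.49 and 10.3 in C, so DKO 1 and DKO 2 were again the highest.

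Among 15 tested genes of IGF and insulin signalling 8 rose in KO against C and 0 fell (limma), where 6.9% of all tested genes rose and 7.01% fell. The median log2 difference was 0.67, beside 0.01 for all tested genes. The 8 encode binding proteins (Igfbp3, Igfbp5 and Igfbp7), stanniocalcins (Stc1 and Stc2), receptor substrates (Irs1 and Irs2) and an Igf2 mRNA binding protein (Igf2bp2), and no receptor is among them. Igfals, which encodes a partner of circulating IGF complexes, averaged 3.40 in KO and 4.45 in C, and Grb14, an adaptor gene related to Grb10, 54.1 in KO and 70.3 in C, and neither passed. Igfbp3 and Igfbp5, which encode IGF binding proteins of the extracellular space, were 80.1 and 135.4 on average in KO, against 24.9 and 43.3 in C (limma, adjusted p of 0.0116 and 0.00255). Stc1, encoding a stanniocalcin that inhibits the IGFBP protease PAPP-A, was 5.55 in KO and 1.23 in C (limma, adjusted p = 0.00884). The calls of Igfbp3 and Stc1 ended without KO 1 (0.0778 and 0.0648) or KO 3 (0.0911 and 0.0823). In DKO against KO 5 of the 15 fell and 0 rose, among them Stc1 (1.31 in DKO; limma, adjusted p = 0.00969), Igfbp5 (68.7 in DKO; 0.0251) and Igf2bp2, encoding a protein that binds Igf2 mRNA (2.28 in DKO, 5.53 in KO; 0.00905). These calls too ended without KO 1 (0.0661 to 0.0979) or KO 3 (0.0931 to 0.189), and that of Igfbp5 in a fit of the 2 groups alone (0.0669). The background in DKO against KO was 5.73% lower and 6.08% higher. In DKO against C, 0 of the 15 passed limma, edgeR or DESeq2, and 5 had an unadjusted p under 0.05 in limma. Of all tested genes, 8.5% had such a p there. The fibroblast markers also differed in KO, with 5 of 12 higher than in C and 0 lower, and their part in this list was not tested.

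The receptors through which IGF2 acts were named after their values were seen. Igf1r had a signal of 15.8, 18.4 and 13.5 in DKO, 22.2 and 20.1 in KO, and 13.7, 17.4 and 15.5 in C (KO against C, limma, adjusted p = 0.131). Insr had a signal of 43.3, 39.1 and 59.7 in DKO, 80.7 and 80.8 in KO, and 60.1, 64.3 and 68.0 in C. For both genes the KO libraries were the highest. Insr fell by 0.78 ± 0.18 (SE) in DKO against KO (limma, adjusted p = 0.0190), which ended without KO 1 (0.104) or KO 3 (0.132) and in a fit of the 2 groups alone (0.0741). Under scaling to total reads both genes passed in KO against C, and Igf1r also in DKO against KO, with the shift of the median gene given above.

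Of all tested genes 13.9% were called in KO against C, and each list of this paragraph had a smaller share. By direction 6.9% were higher and 7.01% lower. Genes that maintain or read imprints showed 1 rise and 0 falls among 13 tested in KO against C. That gene was Uhrf1, a cofactor of the maintenance DNA methyltransferase that dividing cells express (3.92 in KO, 1.84 in C; limma, adjusted p = 0.0391), and its call ended without any 1 library of KO or C (0.0659 to 0.271), with the replicate number as a block (0.0666) or with a pseudocount of 0.25 (0.0555). Among 8 genes of the mannose 6-phosphate pathway in which Igf2r takes part, 1 rose in KO against C, Plaur, the urokinase receptor gene (6.31 in KO, 1.80 in C; limma, adjusted p = 0.00448). Of 12 Notch pathway genes, the pathway that DLK1 is thought to modulate, 1 rose, the target gene Hes1 (34.2 in KO, 19.5 in C; limma, adjusted p = 0.0330). The Hes1 call ended without C 1 (0.0861), C 2 (0.0698), C 3 (0.110) or KO 1 (0.295). In DKO against C, 0 genes of these 3 lists passed limma, edgeR or DESeq2. At an unadjusted p under 0.05 in limma there were 2 of imprint maintenance, 0 of the mannose 6-phosphate pathway and 3 of Notch. Of all tested genes, 8.5% had such a p there and 0.155% were called.

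Some genes had a profile over the 8 libraries close to that of a called member. Closeness was the mean absolute difference between centred log2 profiles, among 6597 named genes at or above the median level. For Cdkn1c the nearest were Cyp4b1 (0.18), C1qtnf4 (0.19) and Aqp7 (0.20), against a range of 2.32 in Cdkn1c itself. Cyp4b1 was also near Igf2 (0.29), beside Dpep1 (0.28) and C3 (0.30), and Igf2 spanned 2.99. For H19 they were Vwf (0.56), Igf2 (0.56) and C3 (0.60), a looser match over a range of 4.45. Grb10 had the closest matches, Wwc2 (0.034), Arhgef12 (0.046) and Plekha1 (0.065), over a range of 0.75. Peg3 was matched by Pex6 (0.10), Cfap20 (0.12) and Pold1 (0.12), over a range of 1.36. Likeness of profile is a description of these 8 libraries.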

How the data were processed

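Poly(A) RNA was sequenced on an Illumina instrument, per the labels' protocols. Tools named are cutadapt, RSEM (1.3.1) and limma, with build GRCm38, per the submitters' processing notes; their roles are not given. The deposited values are a normalised signal: every value (100%) is a whole number of reads, to within 0.001, plus 0.5 over an effective library size. Replicates differed beyond counting noise (chi-square per gene 13.8 to 257.4).

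From the deposited signal, limma 3.58.1 (R 4.3.3) was run for the 13544 genes that reached 1 in 2 or more libraries, on log2(signal + 1), with 3 group means, 5 residual degrees of freedom and a variance trend. Fold changes on this scale understate those of low genes. edgeR 4.0.16 and DESeq2 1.42.0 on the recovered reads, other scalings, filters and pseudocounts, and left-out libraries were alternatives. Scripts were tested on simulated data. Gene identifiers of 13666 of 13677 rows matched GENCODE M21.

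The members, gene lists and tests were chosen with earlier results of these data known. The lists cover other imprinted genes, IGF and insulin signalling, imprint maintenance, kinase inhibitors, the mannose 6-phosphate pathway, Notch, proliferation, and markers of fibroblast, epicardium, endothelium, cardiomyocyte, skeletal muscle, fat, mural, macrophage, neuron and glia, and fetal red cells. Named were all members, up to 3 called genes of a list per comparison, and the 3 nearest profiles of each called member, passing over predicted genes. Strand was not given, so antisense overlaps stay uncertain.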

Additional observations from a re-analysis of the deposited data

How the results depend on the processing

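Over up to 20 alternatives for each member or other named gene, 1173 values were recomputed: 1023 kept their direction and side of the threshold, 119 lost a call, 18 gained one and 13 turned sign. The cause of these moves was not tested, except that fewer libraries or other groups in a fit change its spread. Members called stayed at 0 in DKO versus C under every alternative run. In KO versus C they were 1 to 4 when 1 library was left out. In DKO versus KO they were 1 to 5 so, and 1 in a fit of the 2 groups alone. All genes called were 449 to 2966 in KO versus C, 4 to 90 in DKO versus C and 334 to 1991 in DKO versus KO with 1 library left out. Scaling to total reads gave 4806 in KO versus C and 6205 in DKO versus KO (4061 and 3768 without mitochondrial transcripts). Fits of the 2 compared groups alone gave 3606 and 730. The count test on recovered reads (edgeR) called 2045 genes in KO versus C, 25 in DKO versus C and 1692 in DKO versus KO, and DESeq2 2490, 69 and 2217.

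The values that turned sign were of members that had not passed. Meg3 in KO versus C was 0.33 under scaling to total reads and 0.18 without mitochondrial transcripts, and -0.17 in DKO versus KO under the first. With 1 library left out, H19 ranged from -1.58 to 0.58, Meg3 from -0.34 to 0.029, Mest from -0.034 to 0.44 and Plagl1 from -0.37 to 0.52 in KO versus C. In DKO versus C, Meg3 ranged from -0.10 to 0.51 and Mest from -0.32 to 0.24, and in DKO versus KO, Mest from -0.46 to 0.10.

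Deviations of samples with the same replicate number had correlations of -0.27 to 0.22 over 7 pairs. Of these, 5 were over 0.1, including the 3 pairs of replicate 3, and 2 were not. Pairs with different numbers ran from -0.36 to 0.21. The deviations of the 2 KO libraries are equal and opposite, so the pairs are not independent. These correlations therefore cannot settle whether the numbers pair the samples, and the main fit did not pair them. With the replicate number as a block, 1794 genes were called in KO versus C, 21 in DKO versus C and 1269 in DKO versus KO, and 2, 0 and 4 members. Among named genes, the calls of Grb10 (adjusted p = 0.0626), Uhrf1 (0.0666) and Cfd (0.0630) in KO versus C and of H19 (0.0931) and Casd1 (0.0656) in DKO versus KO were not made there.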
